A study of Danio rerio with 8 samples.

Results

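A group of 49 genes among the 34381 in the zebrafish gene table went from near silence to abundance between 7 and 24 hours post fertilisation (hpf), in primordial germ cell (PGC) and somatic cell libraries alike. They were chosen by their measured levels. A member had at most 1 CPM (the expected count of a gene on a per-million scale of its library's total) in each of the 4 libraries at 7 hpf, and at least 50 CPM in each of the 4 at 24 hpf. The rule also named 5 genes to be left out (col1a1a, COL1A2, COL2A1, ELAVL3 and MYOG), of which 0 met the CPM limits. The levels at both stages and the rise between them were therefore set by the choice and are described here without a test. The rule asked for no difference between PGCs and soma. Its limits held in both cell types at each stage, however, and so bounded how far members could differ between them.

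PGCs, from which eggs and sperm later form, had been separated by fluorescence-activated cell sorting from the other cells of embryos of a transgenic zebrafish line, kop-EGFP-F-nos3'UTR, in which an EGFP reporter under the kop promoter marks the germ cells. The study's methods add a cry-DsRed cassette to the name of the line. All 4 groups carried this transgene and the labels give no treatment: PGCs at 7 hpf (gastrula), PGCs at 24 hpf (pharyngula), soma at 7 hpf and soma at 24 hpf, with 2 libraries each. The soma groups were the somatic cells of the sort, and so a mixture of tissues. Nothing in the labels gives the number of embryos behind a library or says that replicates came from separate clutches, so the p-values measure only the spread between these libraries. The libraries held 6997561 to 21073240.0 expected counts, so that 1 CPM stood for 7 to 21.1 counts.

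By 24 hpf a zebrafish embryo has formed most of its somites, and its trunk muscle contracts. Skeletal muscle shortens when myosin thick filaments pull on actin thin filaments, a movement that tropomyosin and troponin gate in response to calcium released through ryanodine receptors. The notochord and the early connective tissue meanwhile lay down an extracellular matrix of collagens and glycoproteins, and neural and pigment cells differentiate. PGCs share none of these tasks: they migrate to the gonadal region and carry RNAs such as those of ddx4, nanos3 and dnd1, which encode conserved germline RNA regulators.

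The cell labels were first checked against germ cell markers. At 24 hpf DDX4 stood at 191 and 149 in PGCs against 1.66 and 1.87 in soma CPM, and NANOS3 at 97.6 and 48.8 in PGCs against 0.256 and 0.518 in soma CPM. A list of 13 germ cell genes summed to 642 and 441 CPM in the PGC libraries and to 11.2 and 16 CPM in the soma libraries at 24 hpf. The labels of both groups at this stage thus matched these markers. At 7 hpf the list summed to 6915 and 9145 CPM in PGCs and 230 and 120 CPM in soma. Its level in PGCs was thus far lower at 24 than at 7 hpf, and the cause was not tested. One library stood apart from the other 3 of its stage. In soma replicate 1 at 24 hpf, 22 of the 24 members with muscle roles were at their lowest, against 21.3% of the 18142 genes tested with a count in each 24 hpf library and 12.8% of the 1967 genes with at least 50 CPM in each 24 hpf library. Levels at 24 hpf are therefore given library by library, and tests and counts of members that rest on soma at 24 hpf also without it.

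Of the 49 members, 48 had a symbol in the reference gene table, which writes many zebrafish genes with capitalised human-style symbols, and 9 of these symbols belonged to 2 gene IDs. By their known roles, 24 members were genes of muscle: 7 of the thick filament, 6 of the thin filament, 7 of muscle structure and 4 of muscle calcium, energy or splicing functions. Another 13 encoded matrix or secreted proteins, 3 were neural and 9 had other or no known roles. The groups were assigned by hand with the values in view. In the map of all genes by their highest level at 7 hpf and lowest level at 24 hpf, the members form the upper left corner.

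**Figure D1:**
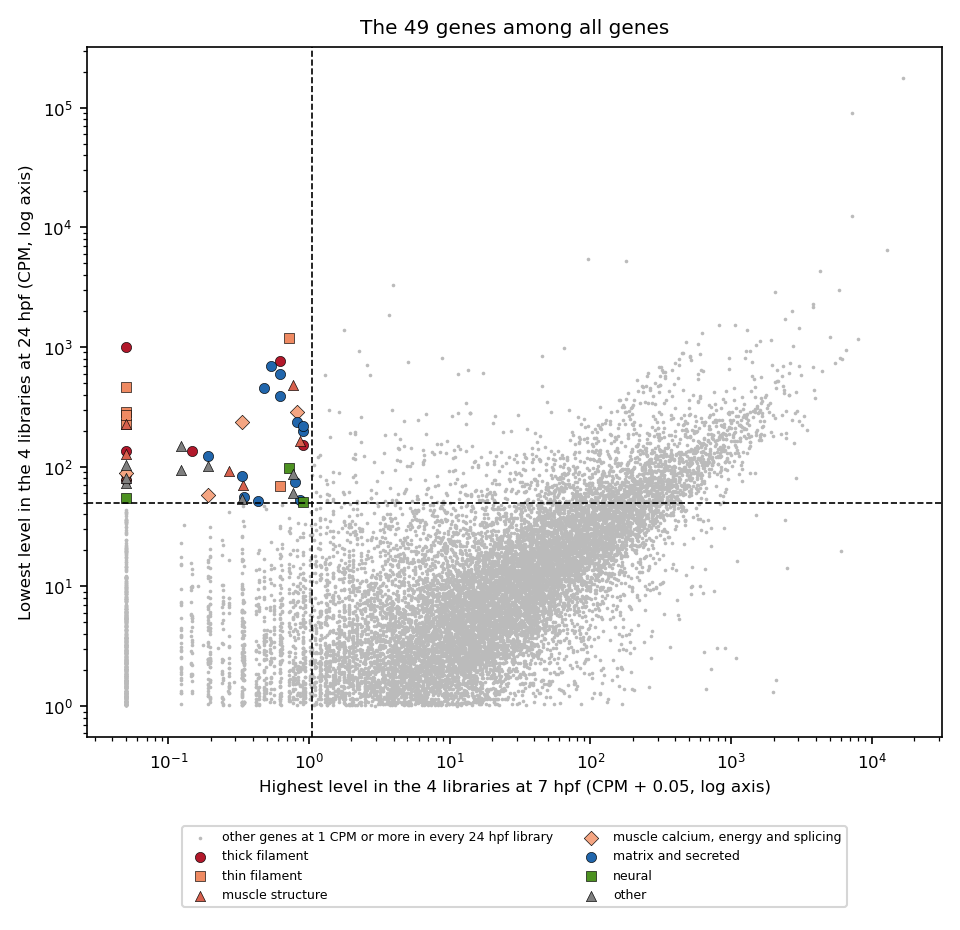
Each point is a gene, placed by its highest CPM among the 4 libraries at 7 hpf (horizontal, 0.05 added, log axis) and its lowest CPM among the 4 libraries at 24 hpf (vertical, log axis); grey points are genes with at least 1 CPM in each 24 hpf library and coloured symbols are the 49 members by role. The dashed lines are the limits of 1 and 50 CPM, and the members fill the corner above and to the left of them.

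At 7 hpf the members were close to or at zero. They held 33 and 85 counts in the PGC libraries and 82 and 53 counts in the soma libraries, 253 in all, and the highest count of a member in a library was 11. No count was found in any 7 hpf library for 16 members, 12 of them with muscle roles (myhz1.3, MYL1, myl13, myh7bb, tpma, TNNC2, tnnt2c, ACTA1, DES, TXLNB, CDH15 and ALDOA). The other 4 were pou3f3b, PABPC4, tuba8l3 and zgc:113232. A count of 0 allows a level of up to 0.222 to 0.429 CPM in these libraries (a floor of 3 counts, which covers counting error only). Only mybphb and vcanb had counts in all 4 libraries at 7 hpf.

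At 24 hpf the same 49 genes held 3.37% and 5.03% of all counts in PGC replicates 1 and 2 and 1.17% and 4.63% in soma replicates 1 and 2. The mean was 4.2% ± 1.18 in PGCs and 2.90% ± 2.45 in soma (SD, n = 2 each). Muscle roles made up 2.77% and 4.36% of all counts in the PGC libraries and 0.687% and 3.92% in the soma libraries. The 25 other members held 0.598% and 0.677% in PGCs and 0.48% and 0.71% in soma. The members with muscle roles thus set the gap between the soma replicates, while the shares of the remaining members lay closer together. The first 3 members by level, myhz1.3, actc1b and myhz2, carried 49.1% of the members' counts, averaged over the 4 libraries.

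**Figure D2:**
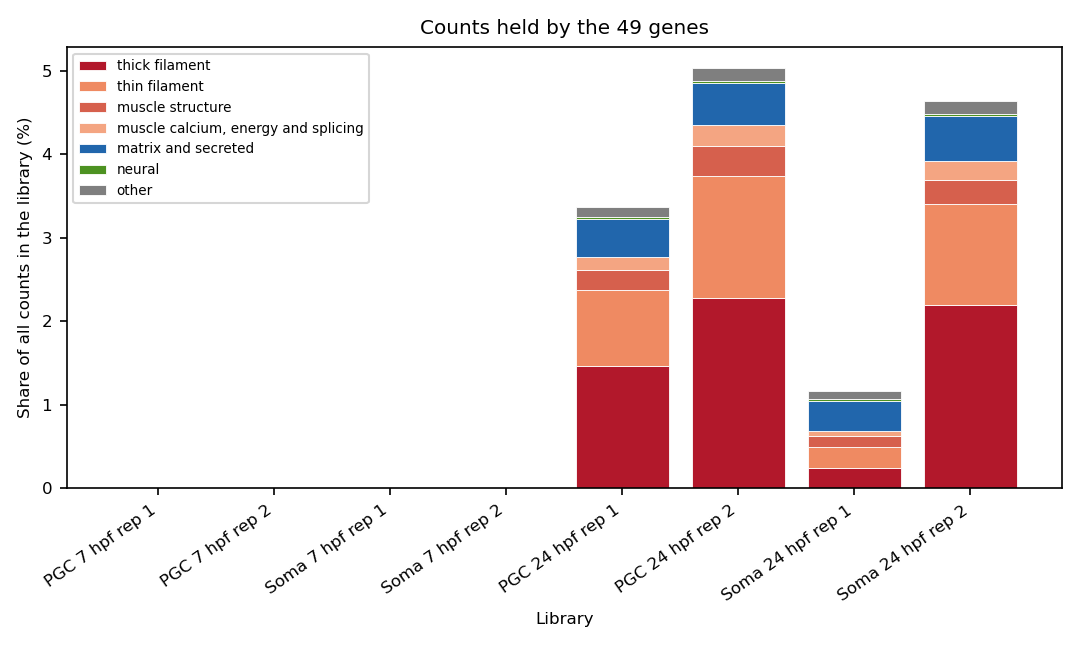
Bars give the share of all expected counts in each of the 8 libraries (percent, vertical) held by the 49 members, stacked by role. At 7 hpf the shares are too small to see, and at 24 hpf the bars reach 3.37% and 5.03% in PGCs and 1.17% and 4.63% in soma.

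The most abundant member was myhz1.3, a fast skeletal myosin heavy chain, with no count at 7 hpf. At 24 hpf it stood at 11013 and 17895 CPM in the PGC libraries and 1007 and 14706 CPM in the soma libraries. Set against 3 counts over both 7 hpf libraries of a cell type, its mean level was at least 82962-fold higher at 24 than at 7 hpf in PGCs and at least 62743-fold higher in soma. A second myosin heavy chain, myhz2, stood at 2313 and 2785 CPM in the PGC libraries and 768 and 5590.0 CPM in the soma libraries, and soma replicate 2 rather than a PGC library was the highest. Soma replicate 1 was the lowest library for both heavy chains, 14.6-fold below soma replicate 2 for myhz1.3 and 7.28-fold for myhz2. Both belong to a cluster of near-identical myosin genes whose fractional counts show that reads were divided among copies, so the level of either copy alone is uncertain.

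The neighbouring copies differed in whether they met the rule. The copy myhz1.1 reached 7737 and 11777 CPM in PGCs and 115 and 8259.9 CPM in soma at 24 hpf but stood at 2.06 and 1.44 CPM in soma at 7 hpf, above the limit. The copy myhz1.2 had 1669.6 and 1500.4 in PGCs against 32.9 and 2366 in soma CPM and was kept out by soma replicate 1 at 24 hpf. A myosin of slow fibres, smyhc1, stood at 4097 and 6646 in PGCs against 3298 and 4897 in soma CPM at 24 hpf and was kept out by 3.91 CPM in soma replicate 1 at 7 hpf. The members thus sample the muscle genes of the table and do not exhaust them.

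The other thick filament members were lower. MYL1, an essential light chain of fast muscle myosin, stood at 395 and 635 CPM in the PGC libraries and 76.7 and 537 CPM in the soma libraries. The light chains myl10 and myl13 stood at 198 and 319 in PGCs against 135 and 192 in soma CPM and 185 and 333 in PGCs against 135 and 235 in soma CPM. The light chains thus shared the low level in soma replicate 1, but by 7-fold for MYL1 and by 1.42-fold and 1.74-fold for myl10 and myl13. The myosin-binding protein gene mybphb had 411 and 616 in PGCs against 151 and 521 in soma CPM, and the heavy chain gene myh7bb 118 and 162 in PGCs against 86.7 and 107 in soma CPM.

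Among thin filament members, actc1b led. This alpha actin gene, the main actin of embryonic fast muscle in zebrafish, had 2 and 4 counts in PGCs and 9 and 0 in soma at 7 hpf. At 24 hpf it stood at 5224 and 8322 CPM in the PGC libraries and 1191 and 6804 CPM in the soma libraries. Per length it was the highest member, with a mean of 1843 TPM (the deposited per-million transcript level, normalised for length), above tpma, the gene of alpha tropomyosin, at 1766 TPM and myhz1.3 at 956 TPM.

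Neither tpma nor TNNC2, the calcium-binding troponin C of fast fibres, had a count at 7 hpf. At 24 hpf tpma had 1556 and 2767 in PGCs against 286 and 2501 in soma CPM, and TNNC2 851 and 1476 in PGCs against 228 and 1277 in soma CPM. The fold between soma replicates was 8.76 for tpma and 5.61 for TNNC2. By contrast tnnt2c, a troponin T gene, had 922 and 1242 in PGCs against 459 and 891 in soma CPM and a fold of 1.94. ACTA1, the skeletal alpha actin, had 367 and 755 in PGCs against 268 and 548 in soma CPM. A gene listed as ACTC1, the cardiac alpha actin, was the exception among the thin filament genes: its 132 and 69.2 in PGCs against 127 and 173 in soma CPM put PGC replicate 2 lowest. Actin genes are close copies, but unlike the myosin copies actc1b, ACTA1 and ACTC1 had no fractional expected counts. Their counts thus show no division of reads between copies. Reads placed on the wrong copy cannot be traced in gene-level counts.

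Members of muscle structure mostly kept to the same order of libraries with smaller folds. NEXN, encoding nexilin of the Z-disc, had 794 and 1078 in PGCs against 481 and 915 in soma CPM, and DES, the muscle intermediate filament desmin, 426 and 755 in PGCs against 128 and 515 in soma CPM. XIRP2, an actin-binding Xin-repeat protein, had 544 and 721 in PGCs against 164 and 626 in soma CPM. The folds between the soma replicates were 1.9 for NEXN, 4.02 for DES and 3.82 for XIRP2. TXLNB, a taxilin of muscle in mammals, had 385 and 541 in PGCs against 229 and 428 in soma CPM, and HSPB8, a small heat shock protein, 118 and 201 in PGCs against 69.9 and 134 in soma CPM. CDH15, the myoblast adhesion molecule M-cadherin, differed from these with 84.6 and 140.2 in PGCs against 121 and 127 in soma CPM, and the 2 soma libraries were within a fold of 1.05 of each other. SYNPO2L, an actin-associated protein of the Z-disc in mammals, had 106 and 141 in PGCs against 92.8 and 125 in soma CPM.

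RYR1, the calcium release channel of the sarcoplasmic reticulum, had 824 and 1238 in PGCs against 285 and 1012 in soma CPM at 24 hpf. ALDOA, a glycolytic aldolase, had 281 and 643 in PGCs against 87.9 and 601 in soma CPM, and the fold between soma replicates was 6.84, while that between PGC replicates was 2.29. rbfox1l, a splicing factor of zebrafish muscle, had 371 and 551 in PGCs against 235 and 488 in soma CPM. In all 3 of these genes soma replicate 1 was the lowest library and PGC replicate 2 the highest.

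**Figure D3:**
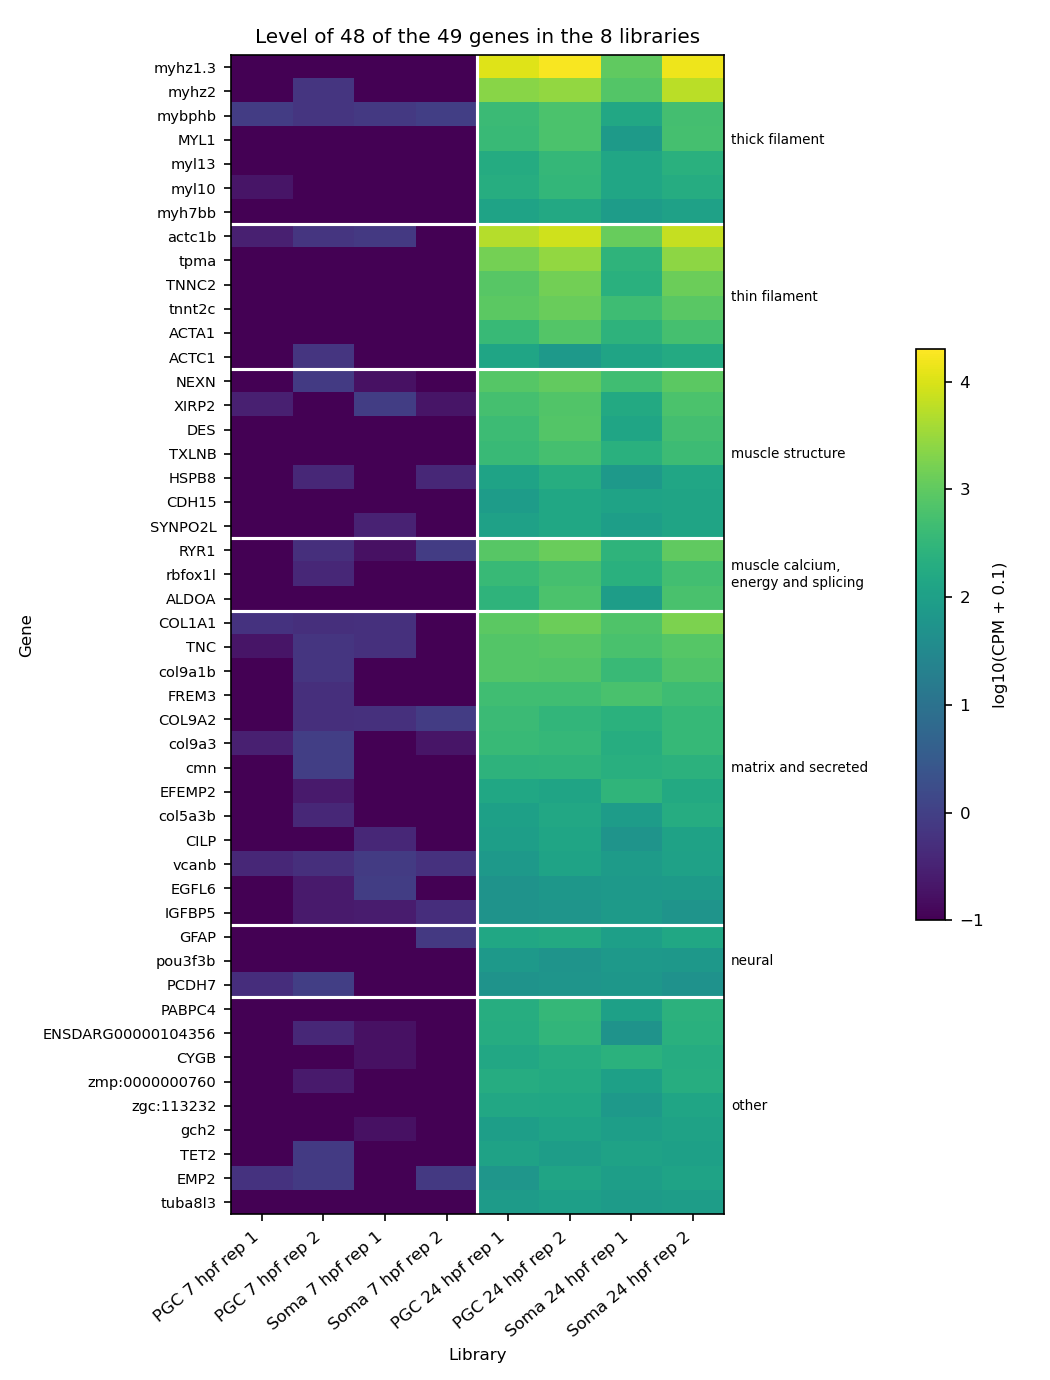
Colour gives the level, log10(CPM + 0.1), of 48 of the 49 members (vertical, grouped by role and ordered by mean level at 24 hpf) in each of the 8 libraries (horizontal). The left 4 columns stay dark, and in the right 4 the muscle genes are dimmest in soma 24 hpf replicate 1.

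Matrix genes formed the largest group without muscle roles. COL1A1 (ENSDARG00000035809, a chain of type I collagen and a second copy beside col1a1a) had 5 and 3 counts in PGCs and 6 and 0 in soma at 7 hpf. At 24 hpf it stood at 941 and 1308 CPM in the PGC libraries and 689 and 1770.3 CPM in the soma libraries. The soma replicates lay on either side of both PGC libraries. The type V collagen chain gene col5a3b had the same order with 101 and 149 in PGCs against 84.4 and 191 in soma CPM.

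Genes of all 3 chains of type IX collagen, which coats type II collagen fibrils in cartilage, were members. At 24 hpf col9a1b had 764 and 735 in PGCs against 392 and 709 in soma CPM, COL9A2 405 and 311 in PGCs against 238 and 353 in soma CPM and col9a3 364 and 334 in PGCs against 199.7 and 349 in soma CPM. Soma replicate 1 was the lowest library for each chain, by folds of 1.81, 1.48 and 1.75 from soma replicate 2. The notochord gene cmn (calymmin) was flatter, with 263 and 285 in PGCs against 219 and 251 in soma CPM.

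Of the glycoproteins, TNC, the adhesion-modulating tenascin C, had 757 and 832 in PGCs against 599 and 807 in soma CPM, and FREM3, a basement membrane protein of the Fras1-related family, 468 and 477 in PGCs against 597 and 450.2 in soma CPM. EFEMP2, an elastic-fibre fibulin in mammals, had 143 and 122 in PGCs against 297 and 169 in soma CPM. FREM3 and EFEMP2 were highest in soma replicate 1, the library in which most muscle members were lowest. That library was the highest for 6 of the 49 members and for 1360 of the 1967 genes with at least 50 CPM in each 24 hpf library. Being highest there in CPM was thus common among abundant genes. Over those 1967 genes the median fold of soma replicate 2 over soma replicate 1 was 0.778. CPM leaves out the TMM scaling factors used in the tests, 0.967 for soma replicate 1 and 0.756 for soma replicate 2. For a gene near that median the order of these 2 libraries therefore depends on the scaling. The same fold was 0.754 for FREM3 and 0.569 for EFEMP2, both further below 1 than the median. CILP, a cartilage matrix protein, had 94.5 and 127 in PGCs against 56.2 and 111 in soma CPM, and vcanb, encoding the proteoglycan versican, 74.5 and 118 in PGCs against 82.6 and 106 in soma CPM. EGFL6 and IGFBP5, a secreted EGF-repeat protein and a binding protein of insulin-like growth factors, stood just inside the limit with 53.1 and 63.3 in PGCs against 72.5 and 75.8 in soma CPM and 51.9 and 57.2 in PGCs against 77 and 55.2 in soma CPM.

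The 3 neural members had modest levels at 24 hpf. GFAP, the intermediate filament of glia, had 147 and 162 in PGCs against 97.5 and 141 in soma CPM, pou3f3b, a POU transcription factor of the nervous system, 69.2 and 54.6 in PGCs against 70.5 and 67.1 in soma CPM, and PCDH7, a protocadherin, 53.2 and 58.1 in PGCs against 65.3 and 50.6 in soma CPM. Of the remaining members, TET2, an enzyme that oxidises 5-methylcytosine, had no count at 7 hpf except 5 in PGC replicate 2 and stood at 113 and 87.4 CPM in the PGC libraries and 112 and 105 CPM in the soma libraries at 24 hpf. CYGB, the globin cytoglobin, had 149 and 189 in PGCs against 248 and 194 in soma CPM. Like most genes at 50 CPM or more, it was highest in soma replicate 1 in CPM, an order that depends on the scaling. The pteridine pigment enzyme gene gch2 had 93.2 and 120.3 in PGCs against 93.3 and 115 in soma CPM.

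PABPC4, a poly(A)-binding protein, had 197 and 336 in PGCs against 103 and 258 in soma CPM, and the member with no symbol, ENSDARG00000104356, 193 and 305 in PGCs against 53.6 and 236 in soma CPM. Both shared the muscle genes' order of libraries, with PGC replicate 2 highest and soma replicate 1 lowest. EMP2, an epithelial membrane protein, had 60.3 and 127 in PGCs against 94.5 and 119.8 in soma CPM, and the alpha tubulin gene tuba8l3 81.2 and 100.1 in PGCs against 80.1 and 88.4 in soma CPM. The genes ENSDARG00000074745 and zgc:113232, whose roles are not known here, had 189 and 170.3 in PGCs against 102 and 197 in soma CPM and 152 and 142 in PGCs against 73.2 and 133 in soma CPM.

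The members varied among themselves in how far the 4 libraries at 24 hpf differed. Over the 24 members with muscle roles the highest library was 1.52 to 17.8 times the lowest, with a median of 3.02. Over the other 25 the same fold was 1.25 to 5.69, with a median of 1.67. Soma replicate 2 was above soma replicate 1 for 24 of 24 members with muscle roles and 18 of 25 others, against 30.9% of the 18142 genes tested with a count in each 24 hpf library. PGC replicate 2 was above PGC replicate 1 for 23 and 17 of these members, against 40.4% of the same genes. The median fold of replicate 2 over replicate 1 was 2.5 in soma and 1.55 in PGCs for muscle roles, and 1.28 and 1.1 for the others. The members were split by role after these values were seen, so the contrast between the groups of roles is a description.

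**Figure D4:**
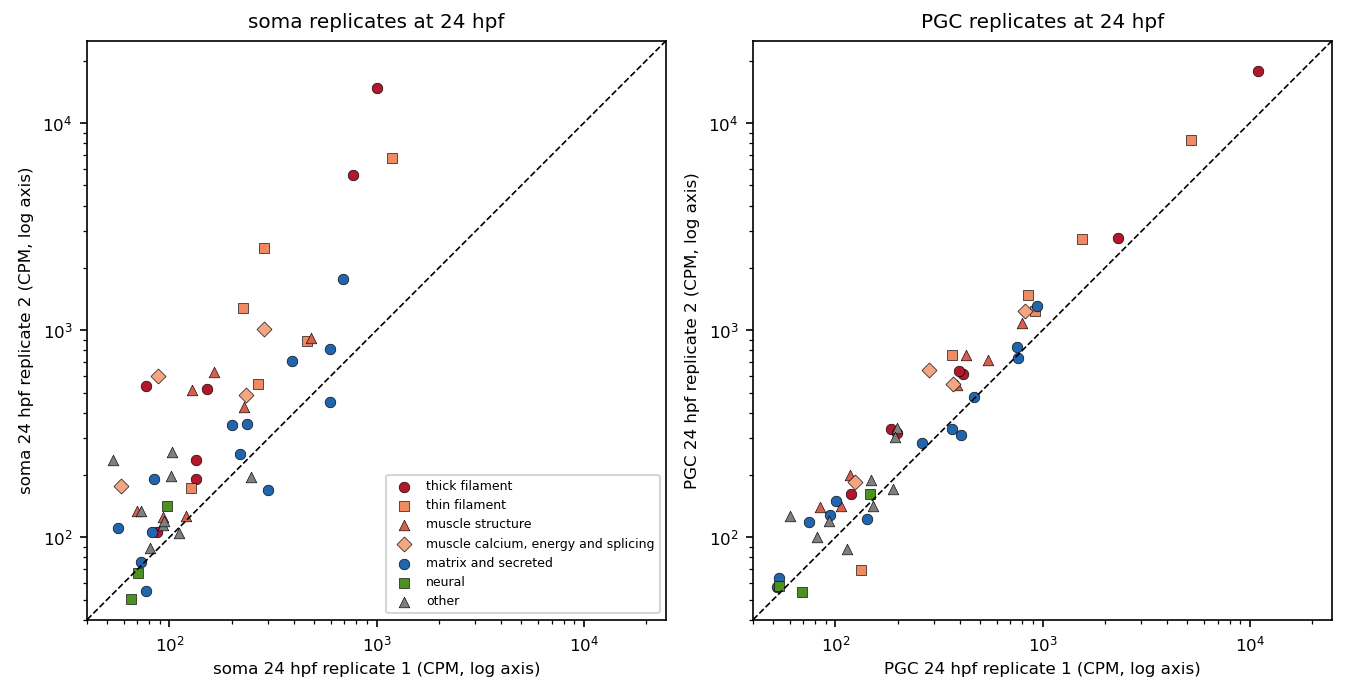
Each symbol is 1 of the 49 members at 24 hpf, placed by its CPM in replicate 1 (horizontal, log axis) and replicate 2 (vertical, log axis) of soma (left) and PGCs (right); the dashed line marks equal levels. In soma the red and orange muscle symbols rise up to 14.6-fold above the line, and in PGCs the members stay within 2.29-fold of it.

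The same order held for muscle genes outside the members. A list of fast and slow muscle genes matched 81 gene IDs, all of them tested and 11 of them members. The whole list summed to 54145 and 84589 CPM in PGCs and to 13019 and 73457 CPM in soma at 24 hpf, and its 70 genes outside the members to 30778 and 47388 CPM in PGCs and 8544 and 39187 CPM in soma. None of the 81 was at 0 in all 4 libraries at 24 hpf. Of those 70, 39 were above 1 CPM in a 7 hpf library, and 31 were silent at 7 hpf but under 50 CPM in a 24 hpf library, 28 of these with their lowest level in soma replicate 1. The PGC libraries, whose germ cell markers set them apart from soma, thus held muscle transcripts at levels between or above those of the soma replicates. In bulk libraries of this kind fewer cells of a type and less RNA per cell cannot be told apart.

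Markers of other cell types did not share 1 order of libraries at 24 hpf. Of 15 lists other than germ cells and fast and slow muscle, summed over their genes outside the members, 5 were lowest in soma replicate 1 and 8 were highest there. The neuron list, lowest in soma replicate 1, summed to 2219 and 2294 CPM in PGCs and 1780.3 and 2214 CPM in soma. The notochord and cartilage matrix list had the same low library, with 6988 and 6919.6 CPM in PGCs and 4579 and 6970.3 CPM in soma, as had the lists of cardiac muscle, kidney and ciliated cells, and photoreceptor and pineal. The erythroid list summed to 702 and 674 CPM in PGCs and 1953 and 1382 CPM in soma, and the hatching gland list to 149.8 and 95.8 CPM in PGCs and 513 and 420.3 CPM in soma. Both sums were highest in soma replicate 1 and lower in each PGC library than in either soma library. In these CPM sums the PGC libraries lay below both soma libraries for 6 of the lists, above both for 1 (neurons) and overlapped them for 8. The sums leave out the TMM factors used in the tests, so the order of libraries that lie close can change with the scaling. The neuron sums of PGC replicate 1 (2219 CPM) and soma replicate 2 (2214 CPM) lay that close. The part of non-germ cells in the PGC levels of the members was not tested.

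**Figure D5:**
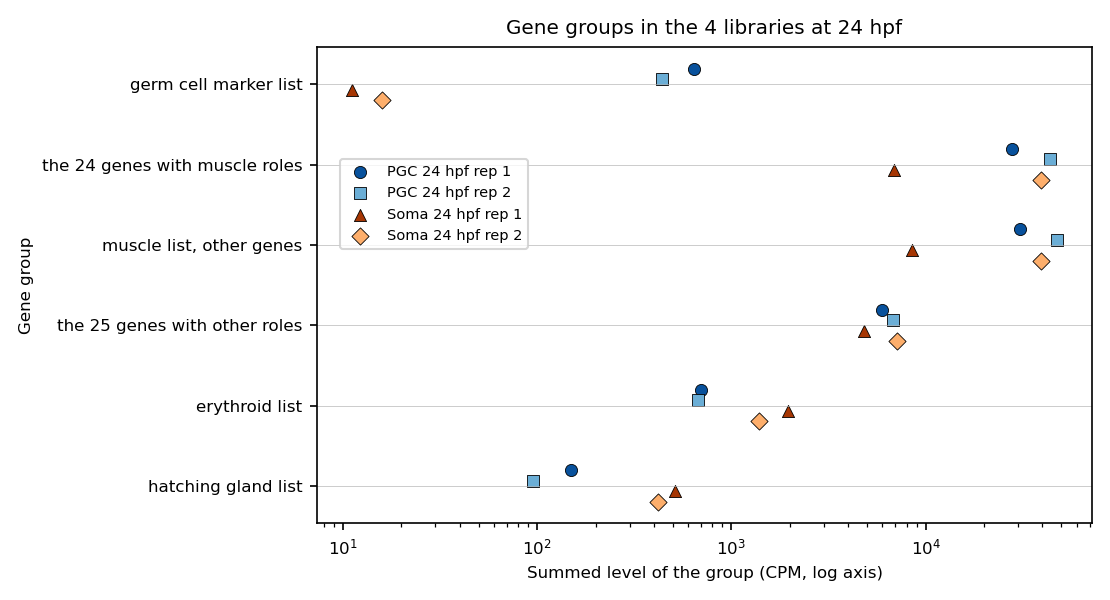
Points give the summed level (CPM, horizontal, log axis) of 6 gene groups (vertical) in each of the 4 libraries at 24 hpf. The germ cell markers separate PGCs (642 and 441 CPM) from soma (11.2 and 16 CPM), whereas the muscle groups separate soma replicate 1 from the other 3 libraries.

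To ask whether any member differed between PGCs and soma at 24 hpf, the 2 cell types were compared across all genes. Of the 49 members, 0 passed the threshold (edgeR quasi-likelihood test, with a log2 fold change of 1.5 or more in either direction and an adjusted p under 0.05 after Benjamini-Hochberg). Among all 19885 genes tested 6 passed, or 0.0302%, so the count among members was no departure from the background. Of the list of 13 germ cell genes 5 passed. The germ cell marker DAZL did not, at a log2 fold change of 5.51 and an adjusted p of 0.296 (edgeR). The test thus missed large differences, and 0 calls do not show that members had the same level in PGCs and soma. At an unadjusted p under 0.05 there was 1 member, EFEMP2, against 3.02% of all genes. DESeq2 and limma on log2 TPM also called 0 members. The 2 PGC and 2 soma libraries did not overlap for 10 of 49 members (7 higher and 3 lower in PGCs), or 20.4% of them, against 32.4% of all genes tested and 20.4% of the 1967 genes at 50 CPM or more. Those higher in PGCs were tnnt2c, myl10, myh7bb, col9a1b, cmn, GFAP and zgc:113232, and those lower were EFEMP2, CYGB and EGFL6. This overlap was read in CPM, without the TMM factors that the test used. For replicates 1 and 2 these were 0.900 and 0.798 in PGCs and 0.967 and 0.756 in soma at 24 hpf. Which members overlap can therefore change with the scaling, and the same holds for the shares given next. Without soma replicate 1, soma replicate 2 lay below both PGC libraries for 9 members and above both for 8, or 34.7% of them. The share was 64.4% of all genes tested and 45.9% of the 1967 genes at 50 CPM or more. Because the rule asked for 50 CPM in every 24 hpf library, genes absent from either cell type could not be members.

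The log2 fold changes of PGCs over soma at 24 hpf ran from -0.77 to 0.80, with a median of 0.34 over the members and 0.02 over all genes. The 5 highest were DES at 0.80 (standard error 0.70), myhz1.3 at 0.76 (standard error 1.04), ENSDARG00000104356 at 0.70 (standard error 0.69), actc1b at 0.67 (standard error 0.82) and myl10 at 0.66 (standard error 0.41). The 5 lowest were EFEMP2 at -0.77 (standard error 0.32), ACTC1 at -0.62 (standard error 0.52), myhz2 at -0.43 (standard error 0.86), CYGB at -0.35 (standard error 0.31) and EGFL6 at -0.34 (standard error 0.59). EFEMP2 had an unadjusted p of 0.0441 and an adjusted p of 1 (edgeR).

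The sign of the median changed when either of 2 libraries was left out. Without PGC replicate 2 the median was -0.02, and without PGC replicate 1 it was 0.50. Without soma replicate 1 the median over the members was -0.15, and the values were 0.07 for DES, -0.15 for myhz1.3 and -0.13 for actc1b. Without soma replicate 2 the median was 1.13 and the values were 2.42, 4.06 and 2.72. In that fit, whose soma arm is 1 library, 23 members had an unadjusted p under 0.05, against 4.34% of all genes in the same fit, and 0 passed the threshold, and the lowest adjusted p was 0.0562 (edgeR, myhz1.3). Against soma replicate 2 alone, the mean PGC level was 0.456 to 1.35 times the soma level over the members with muscle roles, with a median of 0.99. Against soma replicate 1 alone the range was 0.793 to 14.4 and the median 2.5. FREM3, at -0.07 without soma replicate 1 and -0.14 without soma replicate 2, moved little with either library.

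At 7 hpf the rule held every member at or under 1 CPM in each library, so the levels compared there were values it had used. PCDH7, named below, also passed the count filter only through its levels at 24 hpf. The result at 7 hpf is therefore given as a description, and nothing is read from it. With at most 11 counts of a member in a library, 1 of 49 members passed the same test between PGCs and soma, against 5.44% of all genes. This was PCDH7, with 4 and 6 counts in PGCs and 0 and 0 in soma, at least 4.64-fold higher in PGCs when soma is set at 3 counts over both libraries. Its adjusted p was 0.0284 (edgeR quasi-likelihood test). The call was lost when PGC replicate 2 or either soma replicate at 7 hpf, or PGC replicate 1 at 24 hpf, was left out, with adjusted p of 0.0527 to 0.0918 (edgeR). In all, 13 members had counts in PGCs and none in soma at 7 hpf, and 5 had counts in soma and none in PGCs. PGC replicate 2, the library with the fewest counts, had 26 members above 0, and the other 3 had 10, 16 and 10.

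The rise from 7 to 24 hpf was fixed by the rule. All 49 members passed the threshold upward in PGCs, where 19.5% of all genes did, and all 49 in soma, where 23.2% did, and nothing is read from these counts. For members with no count at 7 hpf in a cell type the rise was at least 355-fold (pou3f3b) to 82962-fold (myhz1.3) in PGCs and at least 463-fold (PCDH7) to 62743-fold (myhz1.3) in soma. Without soma replicate 1 at 24 hpf the soma range was at least 404-fold (PCDH7) to 117444-fold (myhz1.3). The bounds with both replicates rest on their mean level at 24 hpf. For myhz1.3, soma replicate 1 alone, at 1007 CPM against 14706 CPM in soma replicate 2, would give a far lower bound. Lists of related genes were not used by the rule but include members, whose rise it fixed. The lists were also chosen with earlier results known, so their counts are a description. Of 81 fast and slow muscle genes, 11 of them members, 74 rose and 1 fell in PGCs, and 70 rose and 1 fell in soma (edgeR, same threshold). Of 50 collagen genes tested, 5 of them members, 42 rose in PGCs and 43 in soma, and 0 fell in either. Of 30 notochord and cartilage matrix genes, 4 of them members, 24 rose and 2 fell in each cell type. Between PGCs and soma at 24 hpf, 0 genes of these 3 lists passed the threshold. Without soma replicate 1 at 24 hpf the soma arm is 1 library, so counts of list genes are not given for that fit.

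The limits of the rule cut through related genes. Just inside the limit at 7 hpf were mybphb, col9a3 and cmn, with a highest level of 0.86 CPM, and just outside it obsl1a, at 1.00 CPM and by a fraction of a count, MATN4 at 1.03 CPM and alpk3a at 1.08 CPM. Just inside the limit at 24 hpf were PCDH7 at 50.6 CPM, IGFBP5 at 51.9 CPM and EGFL6 at 53.1 CPM in their lowest library, and just outside it FSTL1 at 49.6 CPM, CAVIN1 at 47.7 CPM and THBS1 at 47.1 CPM. Soma replicate 1 at 24 hpf alone kept out 37 genes, whereas any other library alone kept out 2 to 15. Of those 37, 9 were on the fast and slow muscle list, and TNNI2, the inhibitory subunit of fast troponin, stood at 212 and 444 CPM in PGCs and 3.45 and 411 CPM in soma. TNNI2 was named after its values were seen.

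Genes outside the members with the closest patterns over the 8 libraries were found by the Pearson correlation of log2(CPM + 1), given as a description, since 4 of the 8 points share a level near 0. For myhz1.3 they were rtn2a, tnni4b.2, jam2b, TNNC1 and otos2 (r of 0.9996 to 0.9998). For actc1b they were CACNG1, METTL21EP, RAC3, USP28 and the RNA gene ENSDARG00000094128 (r of 0.9990 to 0.9994). For myhz2 they were SEMA5A, ITGB3, pcdh1a4 and 2 genes with no symbol (r of 0.9979 to 0.9989). Their levels at 24 hpf were far lower than those of the members they followed, from 40.2 CPM of TNNC1 in soma replicate 1 to 201 CPM of it in PGC replicate 2 and from 2.18 CPM of ITGB3 in PGC replicate 1 to 3.01 CPM of it in soma replicate 2.

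Effective transcript length, the deposited gene-level average over isoforms weighted by their abundance, was a readout that the rule did not use. The members' mean effective lengths ran from 505 bases (tpma) to 14165 bases (RYR1), with medians of 1488 bases for muscle roles and 3351 bases for the others. The median was 1841 bases for all genes tested and 2850 bases for the 1967 genes at 50 CPM or more. Whether length differed between PGCs and soma at 24 hpf could be tested for 28 members whose length varied between libraries. Of these, 0 passed the threshold (limma, a log2 change of 0.2 or more in either direction and an adjusted p under 0.05) and 0 had an unadjusted p under 0.05, against 0 and 6.16% of 7958 genes. Without soma replicate 1, 0 of 27 members tested passed and 0 had an unadjusted p under 0.05. With all 4 libraries the changes ran from -0.17 to 0.11 on the log2 scale. IGFBP5 was the most changed, with 3424 and 3611 bases in PGCs and 3749 and 4151 bases in soma. These lengths are given after the shift common to a library was subtracted. Its unadjusted p was 0.113 (limma across all genes).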

How the data were processed

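RNA was measured in 8 libraries of sorted zebrafish PGCs and soma. Reads were trimmed (Trim Galore), aligned to the danRer10 build (STAR) and quantified per gene (RSEM) by the authors. The deposited expected counts are estimates that can be fractional where genes share reads; the authors' TPM values and effective lengths come from the same runs. The use of strand in counting is not given in the sources used here, so overlapping and antisense genes are uncertain. No annotation or promoter sequence was used here.

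CPM was the expected count over the library total, without the TMM factors used in the tests. These factors were 0.967 for soma replicate 1 and 0.756 for soma replicate 2 at 24 hpf, so folds in CPM between these libraries are unscaled. Counts were rounded and tested in R 4.3.3 with edgeR 4.0.16 (filterByExpr, TMM, quasi-likelihood test) in 1 fit of 8 libraries and 4 group means, over 19885 genes. Effective lengths were tested with limma 3.58.1 on the 4 libraries at 24 hpf, for genes with at least 20 counts in each, after subtracting the shift in bases common to a library. Both scripts were tested on simulated data. DESeq2 1.42.0, RLE size factors, no count filter, a replicate block, limma on TPM and leaving out each library were alternatives.

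The members, the gene lists and the role groups were chosen with earlier results of these data known. The rule for named genes took the 20 most abundant members, the 5 highest and 5 lowest log2 fold changes between PGCs and soma at 24 hpf, each member called between them, list members by role and the 3 genes nearest to each limit. The other members were named to account for the group, except 1 whose own values are not reported here; it is kept in every count and sum. Symbols came from the reference gene table, which named 26790 of 34381 IDs.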

Additional observations from a re-analysis of the deposited data

How the results depend on the processing

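Between PGCs and soma at 24 hpf, 0 members were called under every alternative run, and the same held for effective length. All 49 members passed the threshold between the stages under each alternative. Without soma 24 hpf replicate 2 the median log2 PGC to soma ratio was 1.13, and over the fits that each left out a library of that stage it ran from -0.15 to 1.13. With the replicate number as a replicate block it was 0.44, and 0 members were called at 24 hpf and 1 at 7 hpf. The difference between replicates 1 and 2 in PGCs correlated with that in soma at 0.504 over the members and 0.199 over all genes at 24 hpf, and at 0.131 and 0.0775 at 7 hpf. With 2 libraries a group these do not establish a pairing. At 7 hpf the count of 1 member became 6 with no count filter and 0 to 3 when a library was left out; the cause was not tested.

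The number of members depended on the limits by construction: 29 with TPM in place of CPM, of which 17 were among the 49, 162 with limits of 2 and 25 CPM, 16 with limits of 0.5 and 100 CPM, and 82 on counts outside the 20 most abundant genes of each library. Without a library it was 51 to 86, highest without soma 24 hpf replicate 1. The members' share in PGCs at 24 hpf, 4.2% of counts, was 0.945% of TPM and 2.90% of counts outside the 20 most abundant genes. With 7 to 14 counts at 1 CPM, levels at 7 hpf are set by single reads, and leaving out a library leaves 1 arm with a lone sample that is assumed to vary like the other groups.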

Other observations

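Soma replicate 1 at 24 hpf was not equally low for all muscle genes outside the 49; the genes named here were chosen after their values were seen. Several genes of fast fibres were far lower there than in soma replicate 2. Of those named, pvalb1, pvalb2, TNNI2 and MYL11 were among the 37 genes that soma replicate 1 alone kept out. A low level in that library was thus part of how they were picked. The calcium-binding parvalbumins pvalb1 and pvalb2 stood at 0.832 and 1.22 CPM in soma replicate 1 against 219 and 249 CPM in soma replicate 2, folds of 264 and 205. In PGCs pvalb1 had 122 and 184 CPM, between the soma replicates. The fold between soma replicates was 119 for TNNI2, 71.7 for the fast heavy chain myhz1.1 and 56.2 for the light chain MYL11.

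The slow heavy chains smyhc1 and smyhc2 had folds of 1.48 and 2.43, and TNNC1, the troponin C of slow and cardiac muscle, 3.88. MYOG, the transcription factor myogenin that drives muscle differentiation, went the other way: it had 63.5 CPM in soma replicate 1 and 20.4 CPM in soma replicate 2, and 32.6 and 23.1 CPM in PGCs. TNNC1 was also among the genes that soma replicate 1 alone kept out. Fast-fibre members had folds of 14.6 (myhz1.3), 7.28 (myhz2), 7.00 (MYL1) and 5.61 (TNNC2). The skeletal actin member ACTA1 had 2.04, within the range of the slow genes named. These folds thus do not part fast from slow genes sharply. With 1 library on each side they have no replicate check. Their cause was not tested.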
